A study of Homo sapiens with 4 samples.

Results

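The neutrophil and monocyte lineage genes examined here were 10 genes, MPO, ELA2 (now named ELANE), AZU1, PRTN3, CTSG, LYZ, SPI1, CEBPA, CEBPE and CD33. Their members were all probes of the array, other than control probes, that carry 1 of these gene names, which gave 13 probes of the 41000 on the array, each kept apart. All 13 were tested. RNA was from Meg-01, an established human megakaryoblastic cell line, in which GATA1 was knocked down with a lentiviral shRNA. GATA1 5-13 and GATA1 4-14 were each 1 clone, grown from a soft agar colony after puromycin selection. GATA1 Neg, the control, was not a clone but a pool of Meg-01 cells infected with lentivirus carrying a negative control shRNA. Every group thus carried a lentiviral shRNA, and clone and knockdown cannot be told apart. The extraction text of the labels names CMK, a different megakaryoblastic line, whereas the remaining labels name Meg-01. Each clone was hybridized against GATA1 Neg on 2 arrays with the dyes exchanged, so that 4 two-colour arrays were available. The comparison asks which myeloid genes differ in level when GATA1 is reduced.

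Granulocytes and monocytes arise from myeloid progenitors under the transcription factors PU.1, which SPI1 encodes, and C/EBPα, which CEBPA encodes. C/EBPε, from CEBPE, acts later, when granulocyte precursors form their secondary granules. At the promyelocyte stage these cells fill the azurophil granules with myeloperoxidase (MPO), the serine proteases neutrophil elastase (ELA2), proteinase 3 (PRTN3) and cathepsin G (CTSG), and azurocidin (AZU1), a protease homologue without catalytic activity. Lysozyme (LYZ) is a bactericidal enzyme of both neutrophils and monocytes, and CD33 is a sialic acid binding receptor on the surface of myeloid cells. GATA1 directs the erythroid and megakaryocytic branches, and GATA1 and PU.1 are known to bind and restrain each other.

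Each array gives, for every probe, a log2 ratio of knockdown over GATA1 Neg, taken after background correction and normalization of the intensities. The ratios of both arrays of a clone were averaged, and the mean of the clones was tested against 0 with limma, with n = 2 clones and Benjamini-Hochberg adjustment over 40974 probes. Since GATA1 Neg RNA was on all arrays, the spread of the control did not enter the test, and the small number of clones limits the precision. The clones share this control, so their values are given side by side. The paper's threshold of an unadjusted p of 0.005 was used beside an adjusted p of 0.05. For a single clone, which has no test, a probe was counted where both of its arrays passed 1.5-fold in the same direction. Between 61.6% and 66.4% of the spots of a channel were well above background. GATA1 (probe A_24_P374244, chrX:48535797-48536559 in hg18) stood at log2 ratios of -0.21, -0.34, -0.43 and -0.58 over the 4 arrays, and its mean of -0.39 ± 0.16 (SD, n = 2 clones) had an adjusted p of 0.605 by limma. GATA1 thus was lower on 4 of 4 arrays, the direction that the labels give, without passing the threshold.

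Of the 10 genes, CEBPA stood highest above the control and LYZ lowest below it, in different clones. None of the 13 member probes reached an adjusted p of 0.05 with limma, as was the case for all 40974 probes (0%). At an unadjusted p of 0.005, 0 member probes were called, where 0.574% of all probes were lower and 0.327% higher. At an unadjusted p under 0.05, 1 member probe was lower, a probe of CD33, and 0 were higher, where 4.04% of all probes were lower and 3.38% higher. In GATA1 5-13, 1 member probe, that of LYZ, was past 1.5-fold lower on both arrays, where 2.01% of all probes were, and 0 were past 1.5-fold higher, where 1.39% were. In GATA1 4-14, 0 member probes were past 1.5-fold lower, where 0.696% of all probes were, and 2 were higher, both of CEBPA, where 0.832% were. The member probes had a median of -0.07 in GATA1 5-13, against 0.02 in GATA1 4-14, beside -0.0021 and 0.00017 over all probes.

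**Figure D1:**
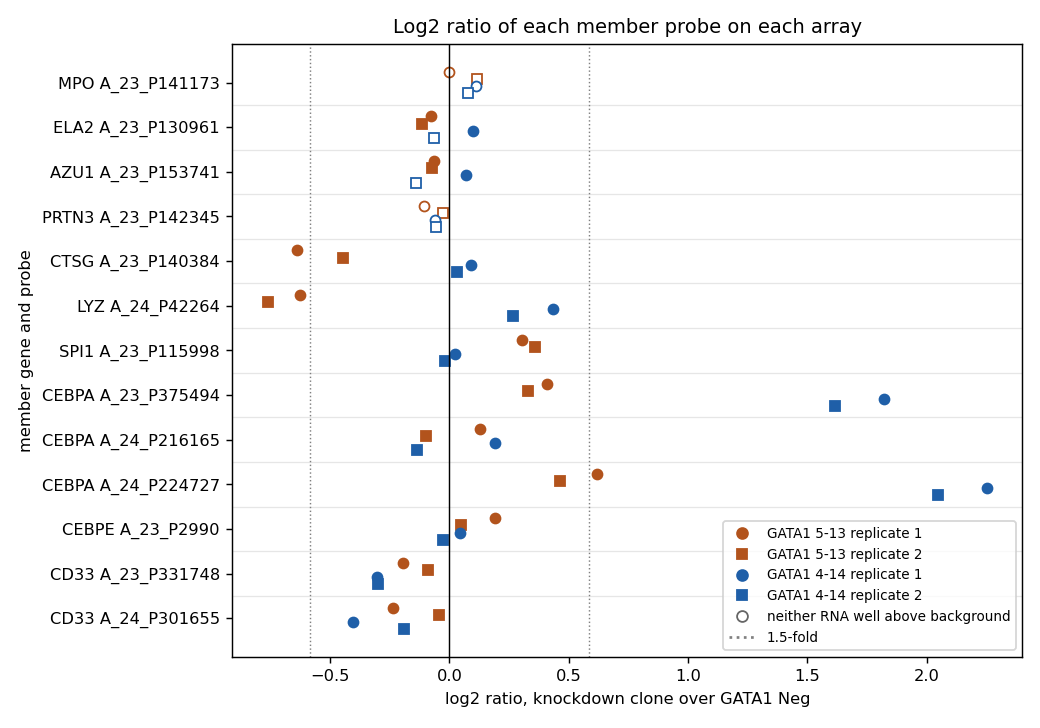
Log2 ratio of knockdown over GATA1 Neg (x axis) of each of the 13 member probes (y axis) on each of the 4 arrays; colours give the clone, circles and squares the 2 dye orientations, open points arrays where neither RNA was well above background, and dotted lines 1.5-fold. A pair of CEBPA probes in GATA1 4-14 lies between 1.62 and 2.25, far to the right of the other points, and LYZ lies left of 0 in GATA1 5-13 and right of 0 in GATA1 4-14.

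Most granule genes were at the edge of detection in these cells. Probe positions are all in hg18. MPO (A_23_P141173, chr17:53702867-53702926, minus strand) was not well above background in either RNA on any array. Its log2 ratios were 0.00 and 0.11 in GATA1 5-13 and 0.11 and 0.08 in GATA1 4-14. PRTN3 (A_23_P142345, chr19:798827-798886) was also not above background on any array, with log2 ratios of -0.11 and -0.03 in GATA1 5-13 and of -0.06 and -0.06 in GATA1 4-14. These ratios carry no fold change, since neither RNA had a measured level.

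ELA2 (A_23_P130961, chr19:804356-806575) was above background on 3 arrays in GATA1 Neg and on 1 array in the knockdown RNA. Its log2 ratios were -0.08 and -0.12 in GATA1 5-13 and 0.10 and -0.06 in GATA1 4-14. AZU1 (A_23_P153741, chr19:780658-781718) was likewise above background on 3 arrays in GATA1 Neg and on 1 in the knockdown RNA, with log2 ratios of -0.07 and -0.07 in GATA1 5-13 and of 0.07 and -0.14 in GATA1 4-14. The normalized levels of ELA2 and AZU1 in either clone overlapped those in GATA1 Neg. AZU1, PRTN3 and ELA2 are neighbours on chromosome 19, and the next probe of that cluster, of CFD (A_23_P119562), which encodes the serine protease adipsin, was above background in both RNAs on 4 arrays. CFD had log2 ratios of 0.21 in GATA1 5-13, against 0.09 in GATA1 4-14 (adjusted p of 0.698 by limma). Adjacent genes of 1 protease cluster thus lay on either side of the detection limit.

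CTSG was the only azurophil protease among the members above background in both RNAs on 4 arrays. CTSG (A_23_P140384, chr14:24112628-24112687, minus strand) had log2 ratios of -0.64 and -0.45 in GATA1 5-13, and of 0.09 and 0.03 in GATA1 4-14. The normalized log2 level in GATA1 Neg lay between 7.86 and 7.97 on the 4 arrays. The level in GATA1 5-13, at 7.25 and 7.52, was below all of these, and that in GATA1 4-14, at 7.95 and 7.92, lay within them. The mean was -0.24 ± 0.43 (SD, n = 2 clones), with a 95% interval of -0.81 to 0.33 and an adjusted p of 0.78 by limma. The difference between arrays of GATA1 5-13 and GATA1 4-14 was not tested, as each clone is 1 replicate. Bulk RNA cannot tell fewer cells that express a gene from less RNA per cell. Without background correction the mean became -0.10, and with the log ratios of the scanner program, Feature Extraction, it became -0.41.

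LYZ lay on opposite sides of the control in the clones. LYZ (A_24_P42264, chr12:68030229-68030288) had log2 ratios of -0.63 and -0.76 in GATA1 5-13, but of 0.43 and 0.27 in GATA1 4-14. Its level in GATA1 Neg was 7.22 to 7.39. The GATA1 5-13 RNA, at 6.59 and 6.63, lay below that range and was not well above background on either array, so that LYZ was at least 1.51-fold lower there, taking the higher of its own signal and the lowest signal above background. The GATA1 4-14 RNA, at 7.66 and 7.53, lay above that range, 1.28-fold higher. The mean of the clones, -0.17 ± 0.74 (SD, n = 2 clones), therefore describes neither clone, with an adjusted p of 0.915 by limma and a 95% interval of -1.13 to 0.78. With Feature Extraction log ratios the mean was -0.70, and without background correction it was -0.05, but in both settings GATA1 5-13 was below 0 (-1.87 and -0.22) and GATA1 4-14 above it (0.47 and 0.12).

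The promoters of the members that the RefSeq table holds (6 of 10: AZU1, PRTN3, CTSG, CEBPA, CEBPE and CD33; GRCh38.p14) were read from 250 bases before to 50 bases after each start, on the strand of the gene. They were searched on both strands for GATA motifs (AGATAA and its variant AGATAG, or TGATAA and its variant TGATAG), for GAGGAA, a core bound by PU.1 and other ETS factors, and for TTNNGNAA, a C/EBP-type motif. None of the 6 held a GATA motif, which 25% of all 35116 promoters of the table did. GAGGAA was present in those of PRTN3, CTSG, CEBPE and CD33, and in 27.9% of all promoters. TTNNGNAA was present in those of AZU1, PRTN3 and CTSG, and in 36.8% of all promoters. AZU1 and PRTN3 held the same 8 letters, TTGGGCAA, from positions -111 and -62. The promoters of PRTN3, below background throughout, and of CTSG, above it, are shown to set an azurophil gene without a measured level beside one with it, with the matched letters in capitals.
PRTN3 (chr19:840749-841048, plus strand): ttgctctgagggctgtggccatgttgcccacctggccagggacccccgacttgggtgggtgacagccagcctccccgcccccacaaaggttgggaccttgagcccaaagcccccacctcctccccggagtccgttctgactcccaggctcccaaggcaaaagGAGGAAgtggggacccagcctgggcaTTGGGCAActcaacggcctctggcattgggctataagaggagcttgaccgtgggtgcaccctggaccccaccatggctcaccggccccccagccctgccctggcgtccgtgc
CTSG (chr14:24576201-24576500, minus strand): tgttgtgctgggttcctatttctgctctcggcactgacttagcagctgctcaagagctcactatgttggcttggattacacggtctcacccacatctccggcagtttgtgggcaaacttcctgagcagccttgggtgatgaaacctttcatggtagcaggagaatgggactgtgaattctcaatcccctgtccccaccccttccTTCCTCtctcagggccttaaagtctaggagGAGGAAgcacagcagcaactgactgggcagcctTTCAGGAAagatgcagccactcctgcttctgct
PRTN3 held GAGGAA from -88 and TTGGGCAA from -62, and CTSG held GAGGAA on the minus strand from -46 and on the plus strand from -16, and TTCAGGAA from 18. Genes with and without a measured level thus carried these letters, and a match does not show binding.

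Among the transcription factors, CEBPA gave the largest ratios of all members, and its 3 probes did not behave alike. The probe A_24_P224727 (chr19:38483193-38483252, minus strand) had log2 ratios of 0.62 and 0.46 in GATA1 5-13 and of 2.25 and 2.05 in GATA1 4-14. CEBPA was thereby 1.45-fold higher in GATA1 5-13 and 4.44-fold higher in GATA1 4-14 at this probe. The level in GATA1 Neg was 7.77 to 8.21, and both clones lay above it, GATA1 5-13 at 8.33 to 8.39 and GATA1 4-14 at 10.26 to 10.38.

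The neighbouring probe A_23_P375494 (chr19:38482988-38483047), 205 bases nearer the 3′ end, had log2 ratios of 0.41 and 0.33 in GATA1 5-13 and of 1.82 and 1.62 in GATA1 4-14, or 1.29-fold and 3.29-fold. Here the level in GATA1 5-13, at 7.80 to 7.87, overlapped that in GATA1 Neg, at 7.47 to 7.90, and the level in GATA1 4-14, at 9.52 to 9.66, did not. At both probes the GATA1 Neg level was higher on the arrays of GATA1 4-14 (7.84 and 7.90 at A_23_P375494) than on those of GATA1 5-13 (7.47 and 7.47). All arrays carried RNA of the same GATA1 Neg pool, but whether it came from a single extract is not stated. The part of this difference between arrays in the result was not tested.

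The probe A_24_P216165 (chr19:38484724-38484783) lies 1736 bases from the 3′-most probe, toward the 5′ end of CEBPA, an intronless gene. Its log2 ratios were 0.13 and -0.10 in GATA1 5-13 and 0.19 and -0.14 in GATA1 4-14, positive where the knockdown RNA was in red and negative where it was in green. Averaged over the dyes, they were 0.02 and 0.03. This probe was above background in both RNAs on 4 arrays, and its GATA1 Neg level ranged from 8.21 to 9.52 between arrays, a wider range than at the other probes of CEBPA.

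Over both clones, CEBPA had mean log2 ratios of 1.34 ± 1.14 (SD, n = 2 clones) at A_24_P224727 and 1.04 ± 0.96 at A_23_P375494, each with an adjusted p of 0.681 by limma. Their 95% intervals were -0.11 to 2.80 and -0.18 to 2.27. All 4 arrays were above 0 at both probes, and the size of the ratio differed between the clones by more than between the arrays of a clone. The scanner program's log ratios were also weighted by the error that its error model gives for each array. This called both probes, with adjusted p of 5.43e-24 and 2.85e-19 by a two-sided normal test. That weighting takes the 4 arrays as independent and leaves out the spread between the clones. Without background correction the means were 0.86 and 0.59.

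**Figure D2:**
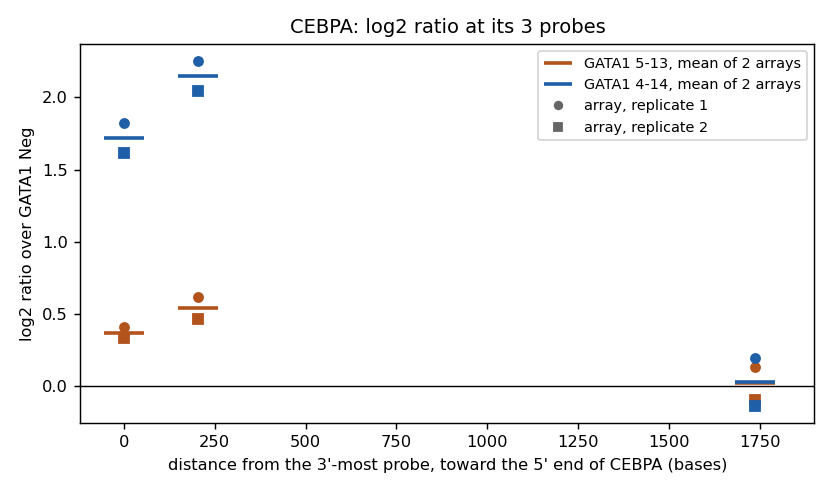
Log2 ratio of CEBPA over GATA1 Neg (y axis) at its 3 probes, by distance in bases from the 3′-most probe (x axis), for each array (circles and squares) and each clone's mean (bars). The probes at 0 and 205 bases reach 1.72 and 2.15 in GATA1 4-14 and 0.37 and 0.54 in GATA1 5-13, whereas the probe at 1736 bases has means of 0.03 and 0.02.

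The CEBPA promoter is shown because CEBPA had the largest ratios of the members. It was 80.7% G and C, against a median of 58.7% over all promoters of the table, and held none of the motifs searched, so it has no capitals.
CEBPA (chr19:33302485-33302784, minus strand): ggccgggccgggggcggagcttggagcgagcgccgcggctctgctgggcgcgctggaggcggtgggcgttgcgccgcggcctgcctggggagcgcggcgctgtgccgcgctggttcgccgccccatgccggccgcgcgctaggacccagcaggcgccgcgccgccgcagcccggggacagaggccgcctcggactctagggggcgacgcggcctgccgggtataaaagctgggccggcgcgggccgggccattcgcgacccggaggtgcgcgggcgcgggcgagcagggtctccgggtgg

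SPI1 (A_23_P115998, chr11:47338165-47353816, minus strand) had log2 ratios of 0.30 and 0.36 in GATA1 5-13 and of 0.02 and -0.02 in GATA1 4-14. In GATA1 5-13 its level of 7.88 to 7.91 lay above all GATA1 Neg values, from 7.44 to 7.60, and in GATA1 4-14 it overlapped them. The mean of SPI1 was 0.17 ± 0.23 (SD, n = 2 clones), with a 95% interval of -0.17 to 0.51 and an adjusted p of 0.757 by limma. CEBPE (A_23_P2990, chr14:22656667-22656726, minus strand) had log2 ratios of 0.19 and 0.05 in GATA1 5-13 and of 0.04 and -0.03 in GATA1 4-14. Its levels overlapped GATA1 Neg in both clones, and its mean was 0.06 ± 0.08 (SD, n = 2 clones; adjusted p of 0.826 by limma). Without background correction the means of SPI1 and CEBPE were 0.07 and 0.02. SPI1 and CEBPA thus had their larger ratios in different clones, SPI1 in GATA1 5-13 and CEBPA in GATA1 4-14, a contrast that was not tested.

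CD33 was lower than the control on 4 of 4 arrays at both of its probes, by a small amount. CD33 at A_23_P331748 (chr19:56434810-56434869) had log2 ratios of -0.19 and -0.09 in GATA1 5-13 and of -0.30 and -0.30 in GATA1 4-14. The level in GATA1 Neg, 15.46 to 15.51, was above that in GATA1 5-13 (15.31 to 15.41) and in GATA1 4-14 (15.16 to 15.20) with no overlap. The probe A_24_P301655 (chr19:56434663-56434722), 147 bases away, had log2 ratios of -0.24 and -0.04 in GATA1 5-13 and of -0.41 and -0.19 in GATA1 4-14, and here GATA1 5-13 overlapped the control. Both probes had a mean of -0.22 ± 0.11 (SD, n = 2 clones), with adjusted p of 0.673 and 0.675 by limma. The 95% intervals were -0.44 to -0.00039 and -0.44 to 0.0017. With Feature Extraction log ratios, A_23_P331748 was above 0 on 1 of the 4 arrays, at 0.09 on the second array of GATA1 5-13. Of the members above background, CD33 was thus the one below the control in both clones at every probe.
CD33 (chr19:51224830-51225129, plus strand): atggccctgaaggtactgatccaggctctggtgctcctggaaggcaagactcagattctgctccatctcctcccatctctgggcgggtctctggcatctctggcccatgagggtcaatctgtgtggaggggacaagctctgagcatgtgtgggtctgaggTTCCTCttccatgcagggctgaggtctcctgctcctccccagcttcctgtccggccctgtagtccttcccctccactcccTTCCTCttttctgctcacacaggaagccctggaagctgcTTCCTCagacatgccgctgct
This promoter is shown because CD33 was the member above background that was lower on all arrays after loess, and it held GAGGAA on the minus strand at 3 positions, from -90, -10 and 30 (capitals).

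**Figure D3:**
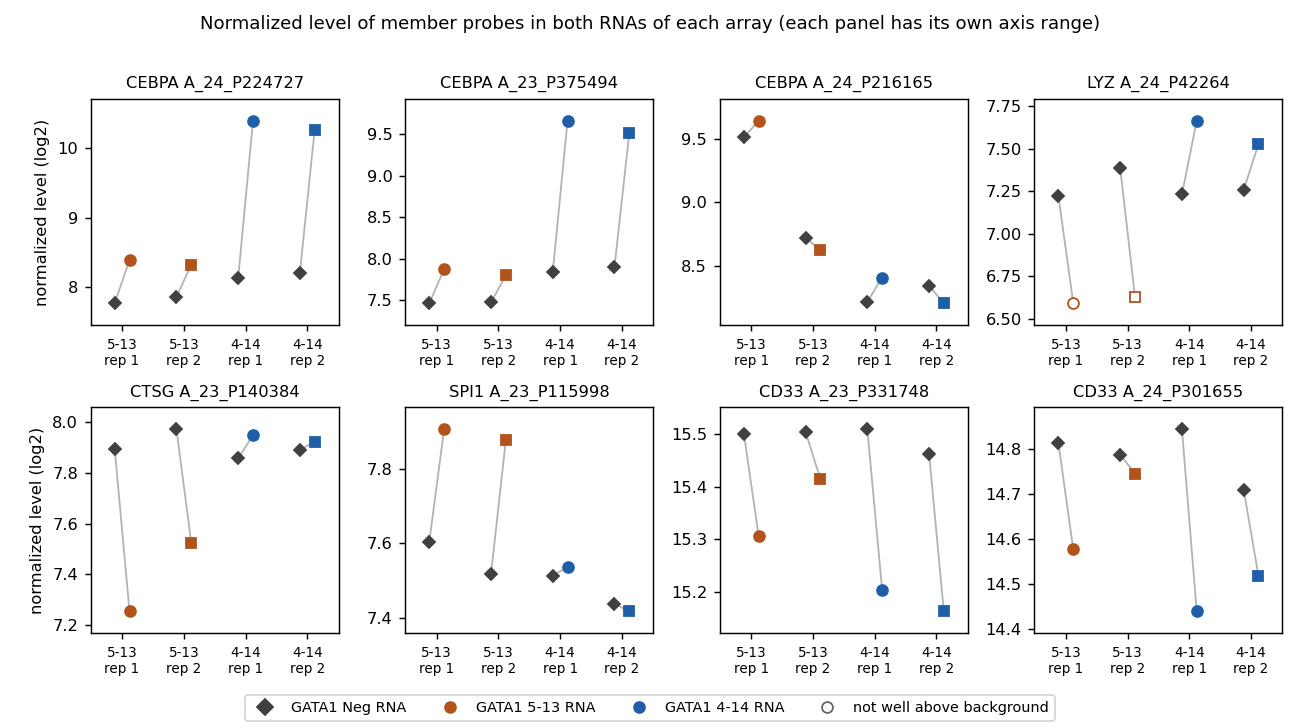
Normalized log2 level (y axis, with its own range in each panel) of 8 member probes in GATA1 Neg (diamonds) and in the knockdown RNA (circles and squares, joined to the control of the same array) on each of the 4 arrays (x axis); open symbols were not well above background. LYZ and CTSG of GATA1 5-13 lie below all GATA1 Neg values, CEBPA of GATA1 4-14 lies above them at the first 2 panels, and CD33 is below its own control on each array.

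A wider set of 108 genes of neutrophils and monocytes was then examined in 4 groups. On the array 107 of them had 151 probes, of which 59 were not above background in either RNA on any array and 66, of 50 genes, were above it in both on all arrays. Of the 151 probes, 3 were lower and 1 was higher at an unadjusted p of 0.005, where 0.574% and 0.327% of all probes were, and 0 passed after adjustment, with limma. At an unadjusted p under 0.05, 14 were lower and 16 higher, where 4.04% and 3.38% of all probes were. In GATA1 5-13, 9 probes were past 1.5-fold lower and 6 higher, where 2.01% and 1.39% of all probes were. In GATA1 4-14, 3 were lower (SERPINB1, ITGAM and MS4A3) and 5 higher (ITGB2, CLEC12A, CYBB, S100A8 and TYROBP, of which ITGB2, CLEC12A and S100A8 are named after their values were seen), where 0.696% and 0.832% of all probes were. Their median log2 value was 0.02 in GATA1 5-13, against 0.0051 in GATA1 4-14.

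The receptors and surface proteins (38 genes on the array, 54 probes) held the largest ratios, with 31 probes not above background anywhere. MS4A3, a tetraspanning protein of early granulocyte and basophil precursors, had log2 ratios of -2.82 and -2.70 in GATA1 5-13 and of -2.03 and -1.91 in GATA1 4-14 (probe A_23_P161909). Its level in GATA1 Neg, 14.13 to 14.30, was far above 11.47 to 11.49 and 12.19 to 12.22 in the clones. ITGAM, the αM integrin chain of monocytes and neutrophils (A_23_P124108), had log2 ratios of -1.64 and -1.69 in GATA1 5-13 and of -1.32 and -1.44 in GATA1 4-14. MS4A3 and ITGAM lay below the control on 4 of 4 arrays, with unadjusted p of 0.00182 and 5.24e-04 and adjusted p of 0.467 and 0.403 by limma. With the 4 arrays taken as 4 values and the replicate number as a block, which counts both dye orientations of a clone as separate samples, the adjusted p was 0.0453 for MS4A3 and 0.023 for ITGAM. Without background correction the unadjusted p by limma was 0.0167 and 0.00588, and with Feature Extraction log ratios 0.0388 and 0.0183, so that neither passed 0.005 in these settings. ITGB2, the β2 chain that pairs with ITGAM, had log2 ratios of 0.03 in GATA1 5-13, against 0.67 in GATA1 4-14, so that the chains of this receptor had unlike ratios. ITGB2 was chosen after its values were seen.

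Among the remaining receptors, the lower values lay mostly in GATA1 5-13. MS4A6A, of the same family as MS4A3, had log2 ratios of -1.88 and -1.72 at its probes in GATA1 5-13 and of -0.30 and -0.32 in GATA1 4-14. FCGR2B, the inhibitory Fcγ receptor, had -1.09 and -0.83 in GATA1 5-13 and -0.26 and -0.20 in GATA1 4-14. FCGR2B is close in sequence to FCGR2A and FCGR2C, and binding of their transcripts to its probes was not tested. IL3RA, the α chain of the interleukin 3 receptor, had 0.42 in both clones at A_32_P217750. The unadjusted p there was 0.00402 and the adjusted p 0.54 by limma. At this probe the GATA1 Neg RNA was above background on 1 array, of GATA1 5-13. IL3RA was thus at least 1.33-fold higher in GATA1 4-14 at A_32_P217750. The other IL3RA probe, A_23_P253081, was not above background in either RNA on any array. Its log2 ratios, 0.11 in GATA1 5-13 and 0.22 in GATA1 4-14, therefore carry no fold change. CSF1R and CSF3R, the receptors for the monocyte and granulocyte colony stimulating factors, were not above background on any array, and CD14, the lipopolysaccharide coreceptor of monocytes, was above it on 1 array in the knockdown RNA and 2 in GATA1 Neg. These 3 receptors were thus at or under the detection limit, whereas 14 receptor probes, of 11 genes, were above background in both RNAs on all arrays.

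Of the other granule and protease genes (26 genes, 35 probes), 1 probe was lower at an unadjusted p of 0.005, that of SLPI, an inhibitor of elastase and cathepsin G, which is named after its values were seen. At that probe, A_24_P190472, SLPI had log2 ratios of -0.60 in GATA1 5-13, against -0.46 in GATA1 4-14. It was above background there on 3 arrays in GATA1 Neg, 2 of GATA1 5-13 and 1 of GATA1 4-14, and on 0 in the knockdown RNA. This places SLPI lower by at least 1.19-fold in GATA1 5-13. In GATA1 4-14 the same bound, 1.07-fold, includes a control signal that was not above background, and is not a sure limit. The other SLPI probe, A_23_P91230, was above background on 4 arrays in GATA1 Neg and on 3 in the knockdown RNA, with log2 ratios of -0.50 and -0.32 in these clones. SERPINB1, a cytosolic inhibitor of neutrophil elastase, cathepsin G and proteinase 3, had log2 ratios of -1.85 and -1.45 at its probes in GATA1 5-13 and of -0.78 and -0.54 in GATA1 4-14. Both probes were lower on 4 of 4 arrays, with adjusted p of 0.622 and 0.646 by limma. SLPI and SERPINB1 thus lay below the control in both clones, whereas of the 3 azurophil proteases among the members only CTSG was measured in both RNAs on all arrays.

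The other transcription factors (20 genes, 29 probes) were mostly expressed, with 24 probes above background in both RNAs on all arrays, and 0 passed an unadjusted p of 0.005 in either direction. CEBPD, a further C/EBP family member induced in maturing myeloid cells, had log2 ratios of 1.24 in GATA1 5-13, against 0.22 in GATA1 4-14, the reverse order of CEBPA. VDR, the vitamin D receptor that promotes monocytic maturation, had 0.60 and 0.17. GFI1, a repressor required for neutrophil formation, had -0.87 and -0.91 in GATA1 5-13 but 0.28 and 0.34 in GATA1 4-14 (A_23_P257365; adjusted p of 0.869 by limma). Its level in GATA1 Neg, 11.77 to 11.89, lay between the clones without overlap.

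Of the oxidase and cytosolic genes (23 genes, 33 probes), 14 probes were not above background on any array. In GATA1 4-14, 3 probes were past 1.5-fold higher (CYBB, S100A8 and TYROBP) and 0 lower, where 0.832% and 0.696% of all probes were. In GATA1 5-13, 4 were higher, among them AIF1, and 0 lower, where 1.39% and 2.01% of all probes were. TYROBP, the signalling adaptor of myeloid receptors, had log2 ratios of 0.16 in GATA1 5-13, against 0.83 in GATA1 4-14. CYBB, the catalytic subunit of the phagocyte oxidase, had 0.23 and 0.62 at A_24_P365767. Its other probes, A_23_P217258 and A_24_P914519, were not among those past 1.5-fold higher in GATA1 4-14. AIF1, a calcium binding protein of macrophages, had 0.74 and 0.31. Adjusted p were 0.69, 0.667 and 0.634 by limma, so none of the 3 passed.

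**Figure D4:**
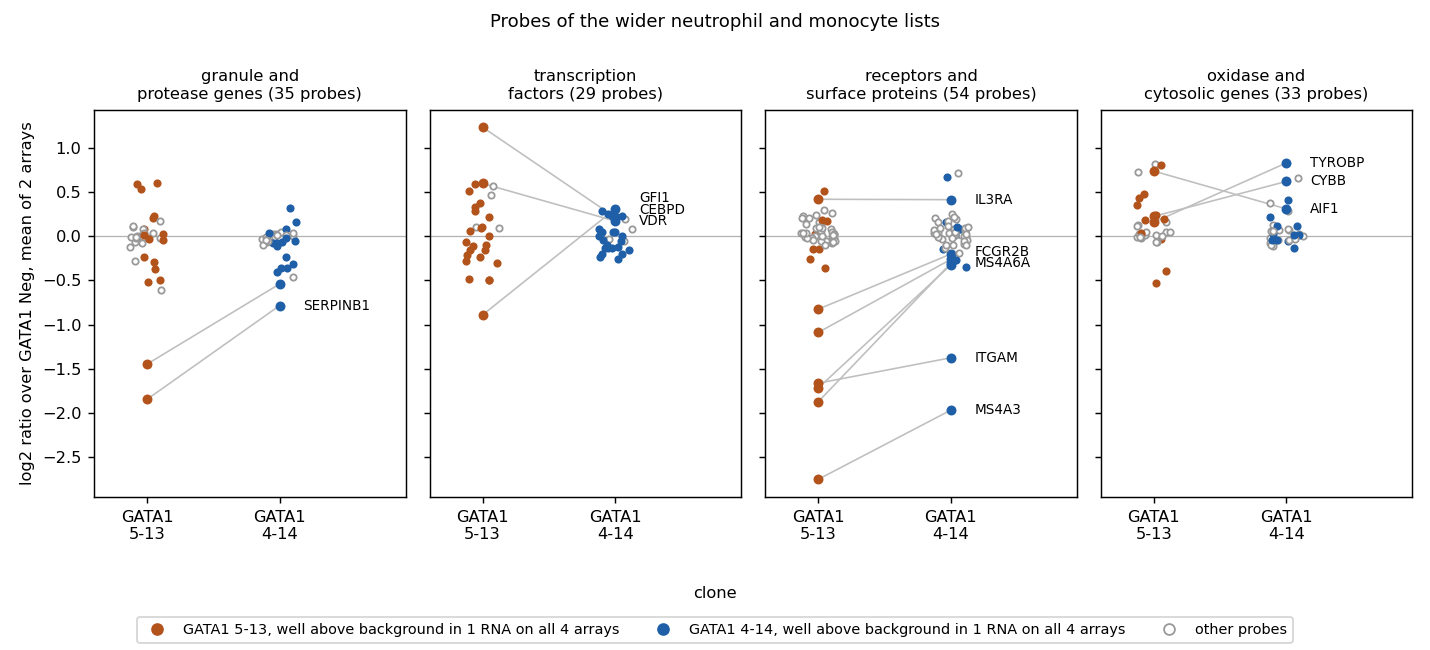
Mean log2 ratio over GATA1 Neg (y axis) of the 151 probes of the wider lists in each clone (x axis), in 4 panels by role; grey lines join the clones' values of the named genes, and open grey points are probes not above background in the same RNA on all 4 arrays. MS4A3 and ITGAM are the lowest points in GATA1 4-14, at -1.97 and -1.38, and most open points lie near 0.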

How the data were processed

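RNA of 2 clones was compared with pooled GATA1 Neg RNA on 4 two-colour arrays. The authors deposited the scanner output of Feature Extraction 9.5.3.1, with raw spot and background intensities, probe positions on hg18 and that program's log10 ratios. The deposited p-value columns were not used here. The series-wide table that the authors deposited holds these log10 ratios with knockdown as the numerator on each array, differing by at most 4.975e-06 and column medians of 0. In R 4.3.3 with limma 3.58.1 and data.table (1.17.8), normexp (offset 50) and loess within arrays were applied, which draws log2 ratios of dim probes toward 0. Control spots and 135 to 152 outlier spots per array of 43376 were left out, 0 were saturated, and spots of a probe were averaged. Levels were taken after Aquantile between arrays. Ratios were turned to knockdown over GATA1 Neg and averaged per clone, since the labels name no separate extracts, so that p-values measure the spread between clones. Limma tested the mean against 0, two-sided. All 13 accessions matched the RefSeq names, 1 under a newer name (ELANE). Named genes were all members and GATA1, probes of the wider lists with the same sign on 4 arrays whose brighter RNA was well above background and that passed p of 0.005 or 1.5-fold on both arrays of a clone (at most 10 a direction), and CD14, CSF1R, CSF3R, ITGAM and GFI1. Members and lists were chosen with earlier results of these data known. Scripts were tested on simulated data. Arrays of the same number share the dye orientation, and their deviations from the clone means correlated with r = 0.773 across probes. Alternatives were no background correction, median centring, Feature Extraction log ratios, the series-wide table, outlier spots kept, a filter on dim probes, an intensity trend, the 4 arrays taken singly (without or with the replicate number as a block), weighting by array errors, 2-fold, and each array or clone left out. A result of the wider lists is not reported here.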

Additional observations from a re-analysis of the deposited data

Results flagged for a closer look

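CTSG had a mean log2 ratio of -0.54 in GATA1 5-13, against 0.061 in GATA1 4-14. Both arrays of GATA1 5-13 were below 0 and both of GATA1 4-14 above it. LYZ stood out in the same way, at -0.69 in GATA1 5-13, where its RNA was not above background, and 0.35 in GATA1 4-14. GFI1, from the wider lists, was at -0.89 in GATA1 5-13, against 0.31 in GATA1 4-14. For each of the 3 genes the difference was not tested, as each clone is 1 replicate.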

How the results depend on the processing

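The number of clones limits all results: with n = 2, an adjusted p that missed 0.05 does not show that a level was unchanged, and dim probes have ratios drawn toward 0. All arrays lay on 1 slide, so the slide could not be a block, and leaving out a clone gives the value of the other clone with no test. At an unadjusted p of 0.005, 235 probes were lower and 134 higher. The lower count was 148 without background correction, 134 with Feature Extraction log ratios or the series-wide table, 1238 with 4 arrays as 4 values, 1021 with the replicate block and 1823 with the error-weighted mean. The higher count was 971, 755 and 1713 in these last 3 settings. These 3 settings count both arrays of a clone as separate values, and the error-weighted mean leaves out the spread between the clones. Leaving out 1 array gave 223 to 283 lower and 151 to 166 higher. Of member probes, 0 passed. This became 1 with Feature Extraction log ratios or the series-wide table (PRTN3, below background), and 2 with the error-weighted mean, which were both CEBPA probes and passed after adjustment too (2); with 4 arrays as 4 values or the replicate block 0 member probes passed after adjustment. Of the wider lists, 4 probes passed, and 0 did without background correction, 2 with the filter on dim probes and 35 with the error-weighted mean. In GATA1 5-13, the 1 member probe past 1.5-fold lower became 0 without background correction or at 2-fold, and 2 with Feature Extraction log ratios or the series-wide table, and 1 to 2 with 1 array left out. The 0 probes higher became 1 with Feature Extraction log ratios or the series-wide table, and 0 to 1 with 1 array left out. The counts in GATA1 4-14 stayed as they were in every setting. CEBPA at A_24_P216165, main 0.02, ranged from -0.061 (without GATA1 4-14 replicate 1; -0.036 without GATA1 5-13 replicate 1) to 0.10 with 1 array left out. For the 25 single probes followed, of which 9 were members, 2 values changed sign in settings that keep both clones (those of CEBPA above), CTSG, LYZ and GFI1 changed sign to 0.061, 0.35 and 0.31 without clone GATA1 5-13, and 24 values passed an adjusted p of 0.05 that they missed otherwise.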

Other observations

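Markers of other blood lineages were read on the same arrays. Of the mast cell, basophil and eosinophil markers (15 probes), CPA3, a mast cell carboxypeptidase, had log2 ratios of 0.71 in GATA1 5-13, against 1.87 in GATA1 4-14, and FCER1A and MS4A2, chains of the high-affinity IgE receptor, had -1.84 and -1.15 in GATA1 5-13 and -1.08 and -1.12 in GATA1 4-14. The 15 include A_23_P67569, which the array names PRG2 but whose accession has the RefSeq name PLPPR3, so it does not read a marker of these cells. It was not above background on any array, at 0.10 in GATA1 5-13 and -0.02 in GATA1 4-14, and was kept in the counts and medians. Of the 15 probes, 2 were past 1.5-fold lower and 1 higher in GATA1 5-13, where 2.01% and 1.39% of all probes were. In GATA1 4-14, 3 were lower and 2 higher, where 0.696% and 0.832% of all probes were. The median of the 15 was -0.29 in GATA1 5-13, against 0.017 in GATA1 4-14. The values of CPA3, FCER1A and MS4A2 lie beside those of MS4A3, and their part in that result was not tested. Of the erythroid markers, 17 of 21 probes were above background in both RNAs on all arrays. The median log2 value over all 21 was 0.19 in GATA1 5-13, against -0.22 in GATA1 4-14. Of the megakaryocyte markers, 7 of 16 probes were above background in both RNAs on all arrays, and of the lymphoid markers 4 of 12. The 16 megakaryocyte probes ranged from -1.68 to 0.06 in GATA1 5-13 and from -0.19 to 0.29 in GATA1 4-14, with medians of -0.18 and -0.011. In GATA1 5-13, 1 of them was past 1.5-fold lower and 0 higher, where 2.01% and 1.39% of all probes were. In GATA1 4-14, 0 were past it in either direction. ITGA2B, among the 7, had -0.38 in GATA1 5-13 and -0.19 in GATA1 4-14 at A_23_P77971, 1 of its probes. The value in GATA1 4-14 is, as rounded, the lowest of the 16. Others of the 16 reached 0.06 in GATA1 5-13 and 0.29 in GATA1 4-14, so this probe does not stand for the list. SLC7A8, an amino acid transporter gene whose probe lies 7827 bases from that of CEBPE, had log2 ratios of 0.88 and 0.14, beside 0.12 and 0.0085 for CEBPE. The genes in this paragraph were picked after their values were seen.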
